A study of Mus musculus with 6 samples.

Results

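Embigin, basigin and neuroplastin are related membrane glycoproteins of the immunoglobulin superfamily, and they accompany the monocarboxylate transporters that move lactate and pyruvate together with protons across the plasma membrane. The 6 genes described here are the chaperone genes Emb, Bsg and Nptn and the transporter genes Slc16a1 (MCT1), Slc16a3 (MCT4) and Slc16a7 (MCT2), out of 19504 genes with a symbol on the array. They were found by their symbols, each of which stood on a single row. The set was chosen by the Tmem161a-KO to WT difference on these same arrays, where the log2 difference of Emb was the second lowest of all gene rows, so the differences of all 6 genes are a description and no p-value is printed for them. MC3T3-e1 is an osteoblastic line from mouse calvaria. RNA from 3 samples of WT MC3T3-e1 cells and 3 samples of 1 Tmem161a-KO line, made from the same cells with CRISPR/Cas9 by limited dilution and carrying short deletions in the targeted exon of Tmem161a, was hybridized to Clariom S mouse arrays in a single colour. The sources used here give neither the day of culture nor whether the samples of a group were separate cultures. The spread between samples, on which every p-value rests, may therefore be technical, and with 1 knockout line an effect of Tmem161a and a property of that line cannot be told apart.

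MCT1, MCT2 and MCT4 need such a partner to reach the cell surface. Basigin is the usual partner of MCT1 and MCT4, and embigin is the preferred partner of MCT2. Embigin and basigin have further roles in adhesion, embigin having been described in mouse as a protein that strengthens the attachment of cells to their substrate and as a product of osteolineage cells in the niche of blood stem cells. Neuroplastin, best known from synapses, also serves with basigin as a subunit of the plasma membrane calcium pumps. Osteoblasts use much of their glucose through glycolysis and release lactate.

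RefSeq promoter windows (GRCm38.p6) were matched for 4 of the 6 genes, Emb, Nptn, Slc16a1 and Slc16a3. The 250 bases before the annotated start are shown for Emb, the member that fell, for Slc16a1, the member that rose, and for Nptn, a relative of Emb that did not pass the test. Capitals mark the E-box CACGTG, the shorter ACGTG that forms its core and is also found in hypoxia response elements, and the GC box GGGCGG, all searched on both strands.
Emb, chr13:117220323-117220572, plus strand: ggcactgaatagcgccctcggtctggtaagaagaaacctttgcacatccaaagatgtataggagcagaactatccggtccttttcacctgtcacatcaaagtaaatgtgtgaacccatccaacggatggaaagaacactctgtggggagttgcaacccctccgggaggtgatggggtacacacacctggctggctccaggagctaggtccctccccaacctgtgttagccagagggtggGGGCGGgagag
Slc16a1, chr3:104638414-104638663, plus strand: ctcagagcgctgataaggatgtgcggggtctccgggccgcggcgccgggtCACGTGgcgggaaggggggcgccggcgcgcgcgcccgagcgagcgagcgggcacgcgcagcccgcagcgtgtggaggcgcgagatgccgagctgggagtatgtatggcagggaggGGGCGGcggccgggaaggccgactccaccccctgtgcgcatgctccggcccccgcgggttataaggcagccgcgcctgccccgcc
Nptn, chr9:58581990-58582239, plus strand: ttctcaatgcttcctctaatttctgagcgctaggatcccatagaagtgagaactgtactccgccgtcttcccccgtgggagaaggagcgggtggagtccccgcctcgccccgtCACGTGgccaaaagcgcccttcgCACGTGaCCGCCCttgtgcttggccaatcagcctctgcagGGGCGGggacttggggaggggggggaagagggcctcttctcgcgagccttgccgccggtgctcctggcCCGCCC

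The window of Emb held neither CACGTG nor ACGTG and a single GGGCGG, at 11 bases before the start. That of Slc16a1 held 1 CACGTG and 1 GGGCGG, and that of Nptn held 2 CACGTG and 3 GGGCGG. The window of Slc16a3, at chr11:120948817-120949066, held 2 ACGTG, no CACGTG and 1 GGGCGG. Of 32851 mouse windows of the same length, 6.02% held CACGTG, 16.6% held ACGTG, which every CACGTG contains, and 32.7% held GGGCGG. The GC content was 54.8% for Emb, close to the median of 52.4% over all windows, against 65.2% for Nptn, 73.6% for Slc16a3 and 76.4% for Slc16a1. The Emb window held 6 CpG dinucleotides, the median number, and the Slc16a1 window held 37. These letter matches describe the windows and were not tied to the intensities by any test.

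The arrays carry no detection call. The 1091 rows of olfactory receptor genes, which act in the nose, therefore served as the measure of background, and their 95th percentile was 95.6 to 104 in intensity units on the 6 arrays, or 6.65 on the log2 scale. The median intensity of an array was 214 to 215 for WT and 204 to 208 for Tmem161a-KO. Of 8 measured osteoblast-lineage markers, 6 lay above background in both groups, including Col1a1, Col1a2, Sparc and Postn, whereas Alpl and Ibsp did not. Sp7 (osterix), a transcription factor of osteoblasts and the only marker of this list past the threshold, rose from 174 ± 12.1 to 849 ± 154 (SD, n = 3 each, log2 difference 2.27, adjusted p = 3.7e-08 from limma), and the summed intensity of the list was 818904 to 839507 for WT and 811197 to 831605 for Tmem161a-KO. Most of that sum came from Sparc, Col1a1 and Col1a2, so it cannot show the change of Sp7. Bglap, also above background, was lower after knockout (-0.30) and did not pass, although its groups did not overlap. Postn (0.36), Col1a1 (-0.16), Col1a2 (-0.11) and Sparc (0.03) did not pass either, and their groups overlapped. None of the 4 blood and macrophage, 4 endothelial or 4 adipocyte markers lay above background in either group. Of 5 epithelial markers, 4 were above it in WT samples and 3 after knockout, and their summed intensity was 840 to 974 and 831 to 891. Krt18, lower after knockout, was the only one past the threshold (log2 difference -0.40, adjusted p = 0.040 from limma). Cdh1 (-0.35) and Krt14 (0.36) did not pass, although their groups did not overlap. The summed intensity of 4 skeletal muscle markers, 2 of them above background, was 499 to 600 and 495 to 543. That of the 2 pluripotent cell markers, both with group means above background, was 249 to 321 and 232 to 297. Pou5f1, 1 of these 2, exceeded background by only 0.05 (WT) and 0.03 (Tmem161a-KO) on the log2 scale. It could not be told from background. The part of the rise of Sp7 and of these smaller shifts in the results below was not tested. The edited gene Tmem161a averaged 1148 ± 84.3 (SD, n = 3) with the WT allele and 967 ± 32.7 (SD, n = 3) after knockout, a log2 difference of -0.25 that did not pass the test. Where its probes lie relative to the deletions was not known, so this row checks the labels only weakly.

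Emb was clearly expressed in WT cells and fell to the level of background in Tmem161a-KO cells. The WT arrays read 2182, 2211 and 1561 intensity units, and the Tmem161a-KO arrays read 91.6, 99.6 and 104. The groups lay far apart, with WT replicate 3 the lowest of its group. The mean went from 1985 ± 367 (SD, n = 3) down to 98.5 ± 6.44 (SD, n = 3), so that 4.96% of the WT intensity was left. The log2 difference was -4.32 (standard error 0.14, 95% interval from -4.61 to -4.02), or 19.9-fold lower. On the Tmem161a-KO arrays the Emb row stood at the 94.3th to 96.2th percentile of the olfactory receptor rows, and it exceeded the 95th percentile on 1 of the 3 arrays. What remained could not be told from background, so the difference may understate the change in RNA, by an amount that is not known. In a bulk RNA sample, fewer cells with Emb and less Emb per cell cannot be told apart.

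**Figure D1:**
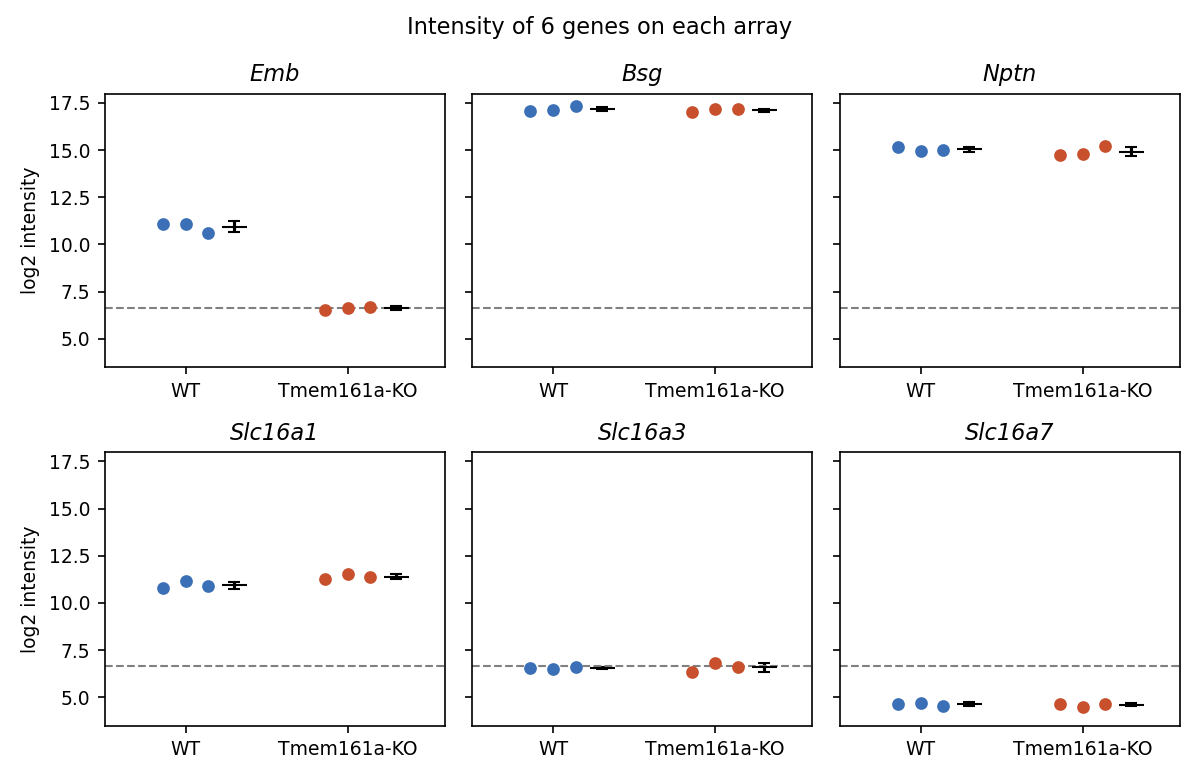
Log2 intensity of Emb, Bsg, Nptn, Slc16a1, Slc16a3 and Slc16a7 on each array (points, 3 WT in blue and 3 Tmem161a-KO in red), with the group mean and SD in black and the 95th percentile of olfactory receptor rows (6.65) as a dashed line. Emb dropped onto the dashed line in Tmem161a-KO cells, Slc16a3 lay on it and Slc16a7 below it in both groups, and Bsg and Nptn stayed far above it.

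The relatives of Emb behaved differently. Bsg read 140394.5, 141799 and 163803 in the WT samples, against 134072, 145888.5 and 145969 after knockout. The groups overlapped, with WT replicate 3 the highest. The means of 148665 ± 13128 and 141976 ± 6846 (SD, n = 3 each) gave a log2 difference of -0.06 with a 95% interval from -0.31 to 0.18. Nptn read 37089, 31597 and 32657 in the WT samples, against 27640, 28140 and 37530 after knockout. Tmem161a-KO replicate 3 was the highest and the other two Tmem161a-KO arrays the lowest of all 6, so the groups overlapped here as well. The log2 difference of Nptn was -0.13, with a 95% interval from -0.42 to 0.16, and it was -0.27 without Tmem161a-KO replicate 3. Neither gene passed the test.

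A difference of log2 values taken within an array does not depend on how the whole array was scaled. For Emb minus Bsg it was -6.01, -6.00 and -6.71 for WT and -10.52, -10.52 and -10.45 for Tmem161a-KO. It changed by -4.25. For Emb minus Nptn the group means were -4.10 and -8.29, and for Emb minus Slc16a1 they were -0.0046 and -4.78. Between Bsg and Nptn the groups overlapped (2.14 ± 0.20 and 2.20 ± 0.22, SD, n = 3). For Emb against each of the other 5 genes, no Tmem161a-KO array reached a WT array. For Bsg minus Slc16a1 the means were 6.24 and 5.72, without overlap, whereas for Nptn minus Slc16a1 the groups overlapped.

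**Figure D2:**
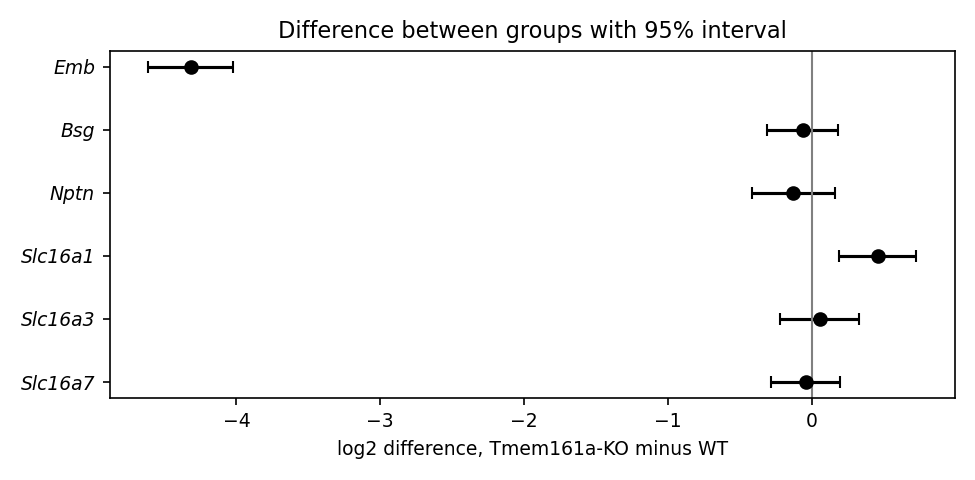
Log2 difference between Tmem161a-KO and WT cells for the 6 genes (points), with the 95% interval from limma (bars). Emb stood at -4.32 and Slc16a1 at 0.46, and the intervals of Bsg, Nptn, Slc16a3 and Slc16a7 crossed 0.

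Among the transporters, Slc16a1 was the only gene above background. It encodes MCT1, which carries lactate and pyruvate in either direction in many tissues. Intensities of 1743, 2256 and 1934 in the WT samples stood against 2512, 2966 and 2642 after knockout. The lowest of the knockout values exceeded the highest WT value. The mean rose from 1978 ± 259 (SD, n = 3) to 2707 ± 234 (SD, n = 3), 1.37-fold, with a log2 difference of 0.46 (standard error 0.13) and a 95% interval from 0.19 to 0.73. Under 16 alternatives the log2 difference lay between 0.37 and 0.56, and the call depended on the setting. It was lost with quantile normalization (0.37), with the methods' t-test after Benjamini-Hochberg adjustment (0.46), or when WT replicate 1 (0.37), WT replicate 3 (0.45), Tmem161a-KO replicate 2 (0.39) or Tmem161a-KO replicate 3 (0.47) was left out.

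**Figure D3:**
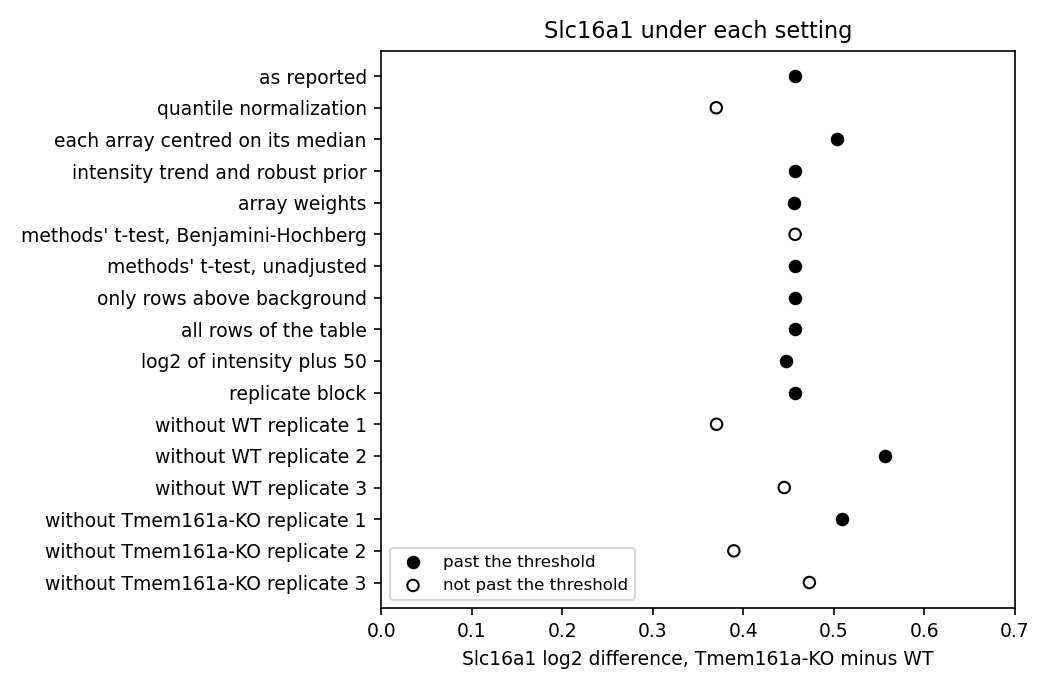
Log2 difference of Slc16a1 between Tmem161a-KO and WT cells as reported and under 16 alternatives (1 row each), with filled points past the threshold and open points not past it. The values run from 0.37 to 0.56, and 6 of the 16 alternatives are open, all of them reprocessings of the same 6 arrays.

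Slc16a3 encodes MCT4, the lactate exporter of strongly glycolytic cells. WT samples read 95.6, 89.9 and 96.0, and Tmem161a-KO samples 82.5, 115 and 97.0. The groups overlapped, and only 1 of the 6 arrays, Tmem161a-KO replicate 2, exceeded its own background percentile. The log2 difference was 0.05, with a 95% interval from -0.22 to 0.33. Slc16a7 encodes MCT2, a transporter of high affinity and the preferred partner of embigin. WT samples read 25.5, 26.4 and 23.3, and Tmem161a-KO samples 25.5, 22.9 and 24.7, which placed it at the 1.19th to 6.78th percentile of the olfactory receptor rows. The log2 difference was -0.04, with a 95% interval from -0.28 to 0.20. At this brightness neither row can show whether the RNA was present or changed, so the 4 genes above background in WT cells are Emb, Bsg, Nptn and Slc16a1. Of the 6 genes, 1 was higher and 1 was lower at an adjusted p under 0.05 with limma, against a share of 9.91% called over all 19571 gene rows (5.73% higher and 4.17% lower). The groups did not overlap for 2 of the 6 genes, against 28.9% of all rows. These counts follow from the way the set was chosen and carry no weight of their own.

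The other monocarboxylate transporters gave little signal. The list holds further Slc16 genes and the sodium-coupled carriers Slc5a8 and Slc5a12, which belong to another family. Of 12 measured genes, 8 lay below background in both groups, 1 rose, none fell and 11 did not pass the test, that is 8.33% called against 9.91% over all rows. The median log2 difference was -0.06 against -0.01 over all gene rows, and it ran from -0.14 without WT replicate 2 to 0.0029 without WT replicate 1. The gene that rose was Slc16a6, known from zebrafish as a ketone body exporter of the liver, from 33.7, 26.4 and 51.5 to 86.5, 84.6 and 71.3 intensity units. All 6 values were below the background percentile, although the groups did not overlap (log2 difference 1.17, standard error 0.19, adjusted p = 0.00064 from limma). At such low intensities the size depends on the scale, and with log2 of intensity plus 50 it was 0.59. The 4 genes above background, Slc16a5, Slc16a9, Slc16a11 and Slc16a13, had log2 differences from -0.21 to 0.23, and none of them passed.

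Among the enzymes that make and use pyruvate and lactate, genes passed the test in both directions. Of 18 measured genes, 3 rose, 3 fell and 12 did not pass, that is 33.3% called against 9.91% over all rows, with a median log2 difference of 0.04. The shares are not like for like. Dim rows were rarely called (7 of the 1091 olfactory receptor rows), and only 1 of these 18 genes lay below background in both groups. The median of the list ran from -0.0066 without WT replicate 1 to 0.11 without Tmem161a-KO replicate 2. Lactate dehydrogenase is built from the subunits encoded by Ldha, which dominates in glycolytic tissue, and Ldhb, which dominates in heart. Ldhb fell from 302, 298 and 267 to 201, 153 and 138 (log2 difference -0.83, standard error 0.14, adjusted p = 0.00096 from limma). All Tmem161a-KO arrays were below all WT arrays. Ldha read 52915, 54322 and 63448 in the WT samples and 55975, 42391 and 83337 after knockout, a log2 difference of 0.04 that turned to -0.22 without Tmem161a-KO replicate 3. Within arrays, Ldhb minus Ldha ran from -7.89 to -7.45 for WT and from -9.24 to -8.12 for Tmem161a-KO, without overlap.

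At the entry to the mitochondrial pyruvate reactions, the genes that fell were Pdp1 and Pcx. Pdp1 encodes the phosphatase that activates pyruvate dehydrogenase, and went from 2691, 3310 and 2322 to 1165, 1809 and 1414 (log2 difference -0.93, standard error 0.16, adjusted p = 0.0013 from limma). Pcx encodes pyruvate carboxylase, and went from 1308, 1493 and 1317 to 804, 889 and 800 (log2 difference -0.72, standard error 0.11, adjusted p = 0.00061). For both genes the groups were clearly apart. The genes that rose were Pdhb (0.59, adjusted p = 0.0026), a subunit of pyruvate dehydrogenase, Pdk3 (0.42, adjusted p = 0.028), a kinase that inactivates the enzyme, and Pdhx (0.41, adjusted p = 0.0495), which anchors a component of the complex. Pdk3 and Pdhx were named after their values had been seen. Both calls were lost at least with quantile normalization, with the methods' t-test after adjustment, and without Tmem161a-KO replicate 1 or Tmem161a-KO replicate 2. Pdk1, another of these kinases, did not pass. It read 253, 263 and 359 in the WT samples and 318, 303 and 1083 after knockout, and its log2 difference of 0.71 was 0.11 without Tmem161a-KO replicate 3.

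In glucose uptake and glycolysis, none of 16 measured genes passed the test with limma, 1 higher and 1 lower did at an unadjusted limma p under 0.05, and none did by the methods' t-test. The share called over all rows was 9.91%. The median log2 difference was 0.12, and it was 0.03 without Tmem161a-KO replicate 3, 0.04 without either WT replicate 1 or WT replicate 2 and 0.24 without WT replicate 3. Slc2a1, the glucose transporter GLUT1, read 12519, 14478 and 22556 in the WT samples and 14697, 16295 and 20152 after knockout, with overlap. Pkm, pyruvate kinase, had a log2 difference of -0.03. Tmem161a-KO replicate 3 was the highest of the 6 arrays for 7 of these 16 genes, for example Tpi1 and Pgk1, and for Pdk1, Ldha and, by 0.02 on the log2 scale, Nptn. WT replicate 3 was the highest WT array for Slc2a1, Ldha, Pdk1, Tpi1, Pgk1 and Bsg, among others, and the lowest for Emb. The groups did not overlap for 1 of the 16 genes, against 28.9% of all rows. It was Pfkfb3, named after its values had been seen (log2 difference 0.33, adjusted p = 0.11 from limma). The part of these arrays in the values of Nptn, Bsg and Emb was not tested beyond leaving each array out.

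**Figure D4:**
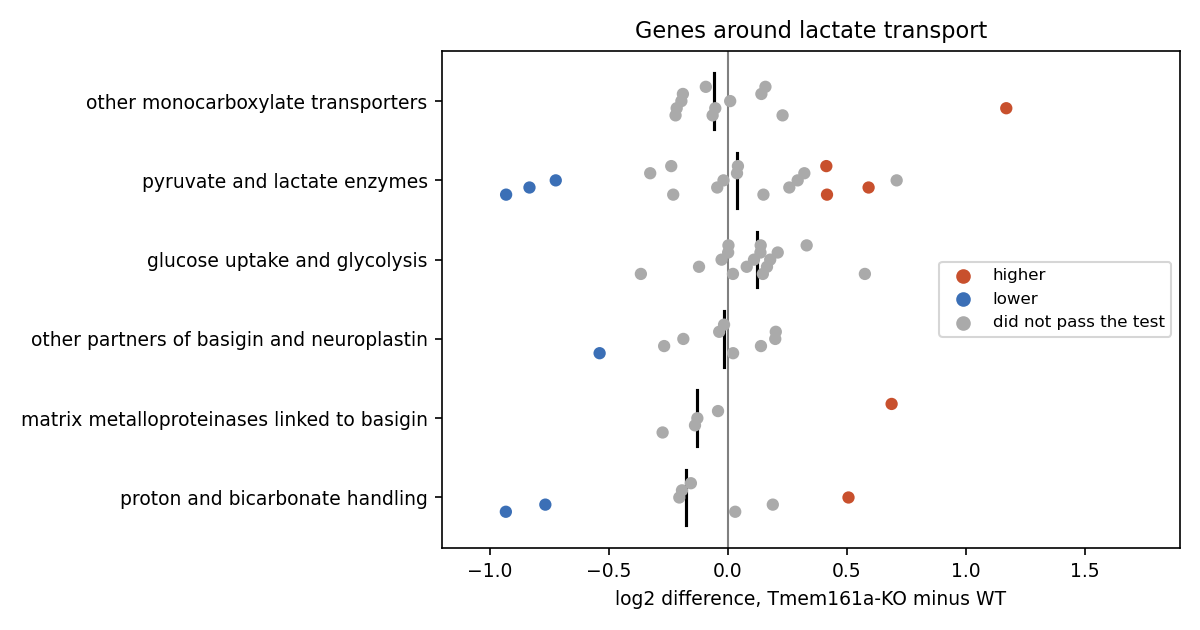
Log2 difference between Tmem161a-KO and WT cells of single genes (points) in 6 lists around lactate transport, red and blue where a gene passed the test and grey where it did not, with the median of each list as a black line. The enzymes of pyruvate and lactate spread to both sides, glycolysis has no coloured point, and the single red point among the other transporters is Slc16a6, whose intensities were all below background.

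Other partners of basigin and neuroplastin were mostly close to 0. Of 9 measured genes, none rose and 1 fell, which is 11.1% called and near the 9.91% over all rows. The median was -0.02, and it turned to 0.02 without WT replicate 3 or without Tmem161a-KO replicate 3. The gene that fell was Atp2b2, a plasma membrane calcium pump, from 257, 321 and 280 to 197, 202 and 190 (log2 difference -0.54, standard error 0.12, adjusted p = 0.0079 from limma). Atp2b1, the calcium pump of most tissues, had a log2 difference of -0.19, and Ppia, which encodes cyclophilin A, a ligand of basigin, had -0.04. Neither passed. Atp2b4 was not analysed here. Basigin is also called the inducer of matrix metalloproteinases. Of 5 measured genes of such proteases, 1 rose and none fell, against 5.73% of all rows called higher, and the median was -0.13. Since 2 of the 5 lay below background in both groups, these shares are not like for like. The median is the value of Mmp9, which lay close to background. The gene that rose was Mmp14, a membrane-bound protease, from 14426, 10651 and 11778 to 22123, 19503 and 17567 (log2 difference 0.69, standard error 0.14, adjusted p = 0.0036 from limma). Mmp2, brighter than Mmp14 and named after its values had been seen, was lower after knockout without overlap. It did not pass (log2 difference -0.27, adjusted p = 0.14 from limma). Mmp14 lies on chromosome 14, as does Pdhb. Whether genes of that chromosome moved together was not tested here.

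Lactate leaves with a proton, and pH is kept by carbonic anhydrases and bicarbonate transporters. Of 8 measured genes, 1 rose and 2 fell, that is 37.5% called against 9.91% over all rows, with a median of -0.17 that was -0.10 without WT replicate 2. Since 2 of the 8 lay below background in both groups and dim rows were rarely called, these shares are not like for like either. Car13, a cytosolic carbonic anhydrase, fell from 8660, 7087 and 7327 to 3747, 3480 and 4958 (log2 difference -0.93, standard error 0.14, adjusted p = 0.00043 from limma). Slc4a4, a sodium bicarbonate cotransporter, fell from 507, 517 and 555 to 335, 313 and 282 (log2 difference -0.77, standard error 0.12, adjusted p = 0.00039). For both genes the arrays of one group were all above those of the other. Car12, a membrane-bound carbonic anhydrase, rose from 145, 174 and 124 to 209, 233 and 185 (log2 difference 0.51, standard error 0.14, adjusted p = 0.029). That call was lost in 6 of 16 alternatives, which were the methods' t-test after adjustment, log2 of intensity plus 50 (0.39), and leaving out WT replicate 1 (0.50), WT replicate 3 (0.39), Tmem161a-KO replicate 1 (0.50) or Tmem161a-KO replicate 2 (0.43). Of the other context genes that passed, Ldhb, Pdp1, Pcx, Pdhb, Atp2b2, Mmp14, Car13 and Slc4a4 lost the call only with the methods' t-test after adjustment. The same held for Slc16a6 in 15 alternatives, since the background filter removed its row. Pdk3 and Pdhx lost theirs in more settings, as given above.

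The genes whose log2 intensities followed Emb most closely over the 6 arrays were Cd9, Gas1, Ccl7, Selenop and Nid1. Their Pearson correlation with Emb was 0.998, 0.997, 0.996, 0.996 and 0.996, taken over 9753 genes brighter than the median row, of which 20 exceeded 0.99. Cd9 encodes a tetraspanin, Gas1 a membrane-anchored growth arrest protein, Ccl7 a chemokine, Selenop a selenium carrier and Nid1 a basement membrane protein. Their log2 differences were -0.91, -1.07, -1.40, -2.79 and -2.66. The points are 6 arrays in 2 separate groups, so the gap between the groups largely sets the correlation, which is given without a p-value.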

How the data were processed

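Total RNA of WT and Tmem161a-KO MC3T3-e1 cells (3 samples each) was hybridized to mouse Clariom S arrays. GeneSpring was used by the authors for normalization, and they deposited a linear intensity for each row and array. Background correction, probe summarization and genome build: not given in the sources used here. Differences of dim rows may therefore be compressed. Of 22205 rows, 19571 were paired with 1 gene symbol by the platform annotation and 2634 with none. A gene on several rows was represented by the brightest row. The test was limma (version 3.58.1, under R 4.3.3) on log2 intensities without covariate or pseudocount, with Benjamini-Hochberg adjustment over the 19571 rows and a threshold of 0.05. "Rose" and "fell" denote genes past that threshold. With 3 arrays a group, an exact permutation test cannot give a two-sided p below 0.1, and the number of arrays limits the precision. The limma step was tested on simulated data. Alternatives were quantile normalization, median centring, an intensity trend with robust prior, array weights and the methods' t-test. The others were a background filter, all rows, log2 of intensity plus 50, a replicate block and leaving out each array. The methods' t-test is the Student's t-test of the study's general statistics section. For the arrays the study names GeneSpring and Transcriptome Analysis Console but no test.

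The members and the gene lists were chosen with earlier results of these data known. From each list, up to 4 called genes with the largest difference and a few main forms were named, with exceptions marked, and the 5 genes with the highest Pearson correlation with Emb. Lists are described by counts and medians beside all rows.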

Additional observations from a re-analysis of the deposited data

How the results depend on the processing

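Over all gene rows, 1122 were higher and 817 lower (57.9% of the calls higher), against 1471 and 647 (69.5%) after median centring of the arrays. Quantile normalization gave 888 and 856 (50.9%). The methods' t-test gave 2038 and 1878 without adjustment and 114 and 76 after Benjamini-Hochberg adjustment, which called 1 of the 6 genes (Emb) and 0 of the genes in the lists around them (15 unadjusted, 12 with limma), with Slc16a1 at 0.46 and not past the threshold. Quantile normalization also called 1 of the 6, with Slc16a1 at 0.37. With 1 array left out, 729 to 965 rows were higher and 497 to 703 lower (740 and 515 without WT replicate 1, 729 and 497 without WT replicate 2), 1 to 2 of the 6 genes and 9 to 11 of the listed genes were called. The log2 difference then ran from -4.48 to -4.23 for Emb, from 0.37 to 0.56 for Slc16a1, from -0.10 to 0.0078 for Bsg, from -0.068 to 0.17 for Slc16a3 and from -0.094 to 0.0026 for Slc16a7. It also ran from -0.22 to 0.27 for Ldha, -0.097 to 0.33 for Slc2a1, -0.11 to 0.030 for Pkm and -0.10 to 0.010 for Ppia. Nptn ran from -0.27 to -0.052. Median centring turned Slc16a7 (0.0036), Pkm (0.020) and Ppia (0.010), and quantile normalization turned Ldha (-0.0054). The cause of these shifts was not tested. For genes this close to 0 or to background, the direction is not settled.

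The labels do not say whether same-numbered WT and Tmem161a-KO arrays belong together. Over all rows, the deviations of same-numbered arrays from their group means correlated at 0.07, 0.09 and 0.02. Differently numbered arrays correlated at -0.11 to 0.04. An effect shared by only some genes could be missed over all rows, so these values cannot decide whether the numbers are pairs. Replicate 3 was the highest of its group in both groups for Ldha and Pdk1. In the glycolysis list the same held for Slc2a1, Pfkl, Aldoa, Tpi1, Gapdh, Pgk1, Pgam1 and Pkm. It did not hold there for Slc2a3, Hk1, Hk2, Pfkm, Pfkp, Pfkfb3, Aldoc or Eno2. Whether these genes share an effect of replicate 3 was not tested. Tmem161a-KO replicate 3 correlated better with WT replicate 1 (0.04) than with WT replicate 3. With the replicate number as a block, 1198 rows were higher and 853 lower, 2 of the 6 genes and 14 listed genes were called, and the log2 difference was -4.32 for Emb and 0.46 for Slc16a1. Without the block those counts were 1122, 817, 2 and 12.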
